A study of Mus musculus with 12 samples.

Results

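The measurement described here is the spread of autosomal transcript levels among single mouse morulae, that is, how far embryos made in the same way differed from each other. All 12 embryos of the series enter it. They were measured on a 1-colour Agilent array, over the autosomal probes whose signal was well above background on all 12 arrays, which are called member probes here. Of 41174 probes, 26888 could be named through RefSeq, 25933 of those were autosomal and 13177 were member probes. A value on every array remained for 12573 of them after outlier spots were left out, and these probes stood for 9521 of the 17648 autosomal genes that the array names. The level of a probe is its log2 signal minus the 75th percentile of its array, and its spread is the SD of that level over the 4 embryos of a class. A gene was represented by its brightest member probe.

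There were 3 classes of 4 single embryos, each embryo on 1 array, all of the (C57BL/6 x DBA/2) F1 background and all grown in KSOM to the morula stage for 72 h after activation. The IVF embryos were fertilised in vitro and not treated, and embryos 1 and 3 were male and embryos 2 and 4 female. The siCont clones and the siXist clones were made with Sertoli cell nuclei, were all male, and were injected with a control siRNA or an Xist siRNA between 6 and 7 h after activation. Clones are thus compared with embryos that had neither nuclear transfer nor an injection, and only siCont against siXist separates the 2 siRNAs. RNA of 1 embryo passed 2 rounds of linear amplification, so the spread holds differences between embryos together with those from the extraction and amplification of each embryo, and fewer cells of a type and less RNA per cell cannot be told apart. Each class lay on a slide of its own with a scan of its own, so that class and slide cannot be told apart.

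In nuclear transfer the genome of a differentiated cell is placed in an egg without its own chromosomes, and the egg has to return it to an embryonic state. At the morula stage the embryo compacts, its outer cells begin to turn into trophectoderm and its inner cells keep the pluripotency network. Reprogramming is known to be uneven from clone to clone, and errors in chromosome segregation are a known feature of cloned embryos.

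Arrays were alike in technical quality but not identical. Between 50.8% and 61.5% of probes were well above background, with siCont clone 3 lowest and siXist clone 3 highest, and the 75th percentile of signal ranged from 507 to 1133 with those same arrays at the ends. The 245 probes spotted 10 times on each array had a median SD between their spots of 0.092 to 0.151 on the log2 scale. Of the markers of inner cells, Pou5f1, Klf4, Zfp42, Dppa3 and Tdgf1 were above background in all 12 embryos, and Sox2 was so in 4 IVF embryos, 1 siCont clone and 1 siXist clone. Nanog had no named probe. Among markers of other cells, Amh of Sertoli cells and Odf1 of spermatids were above background in 0 of 12 embryos, and Wt1 in 1. Other markers of these lists were above background in all 12, namely Clu and Gata4 for Sertoli cells and Prm2, Tnp1 and Tnp2 for sperm. The 9 Sertoli markers had 4 to 5 above background in IVF embryos, 4 to 5 in siCont clones and 4 to 7 in siXist clones, with summed levels of -0.39 to 1.77, -1.38 to 1.06 and -0.89 to 1.37. The 8 cumulus markers, whose sum rested mostly on Amhr2, reached 1.01 to 2.17, 2.02 to 3.11 and 1.85 to 2.87, and the 6 sperm markers -3.25 to -1.56, -2.47 to -0.49 and -3.52 to -1.22. In the same class order, 1 to 3, 2 to 4 and 3 to 4 cumulus markers were above background. For sperm markers it was 3 to 4, 4 to 5 and 3 to 5. The part of these cells in the spread was not tested.

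Cloned morulae of both classes were farther from their class mates than IVF morulae were. The distance of an embryo was the median over the 12573 probes of the absolute difference between its level and the mean of the other 3 embryos of its class. It was 0.320, 0.417, 0.299 and 0.408 in IVF embryos 1 to 4, with a mean of 0.361 ± 0.060 (SD, n = 4). In siCont clones 1 to 4 it was 0.547, 0.545, 0.727 and 0.570, with a mean of 0.597 ± 0.087 (SD, n = 4). In siXist clones it was 0.567, 0.425, 0.738 and 0.454, with a mean of 0.546 ± 0.142 (SD, n = 4). All 8 clones lay above all 4 IVF embryos, although siXist clone 2 exceeded IVF embryo 2 by less than the spread of either class.

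The siCont clones exceeded the IVF embryos by 0.236 in mean distance (exact permutation test over embryos, two-sided, p = 0.0286) and the siXist clones did so by 0.185 (exact permutation test, two-sided, p = 0.0286), which is the smallest p that 4 against 4 embryos can give. The 8 clones together exceeded the 4 IVF embryos by 0.211 (exact permutation test, two-sided, p = 0.00404, again the smallest possible). The siXist and siCont clones differed by -0.0513 (exact permutation test, p = 0.6), and their ranges overlapped. Benjamini-Hochberg adjustment over these 4 tests gives 0.0381, 0.0381, 0.0162 and 0.6. A distance is taken from the other embryos of the class, so the 4 values of a class depend on each other. An embryo far from the rest raises the distances of all of them, and the tests do not take this dependence into account. Clone 3 of each clone class was the most distant. The call over all clones was lost without IVF embryo 1 (difference 0.166, exact permutation test, p = 0.0606) or IVF embryo 3 (0.157, exact permutation test, p = 0.0606), and that for siXist clones without IVF embryo 1 (0.140, exact permutation test, p = 0.286) or IVF embryo 3 (0.132, exact permutation test, p = 0.286). Without siXist clone 3 the difference between siXist clones and IVF embryos was 0.0951, and without siCont clone 3 that between siCont clones and IVF embryos was 0.201. Leaving out an embryo sets the rest of its class against the mean of fewer embryos, which by itself makes their distances somewhat larger. When each IVF embryo was compared with the other IVF embryo of its own sex, the siXist difference was 0.160 (exact permutation test, p = 0.171).

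**Figure D1:**
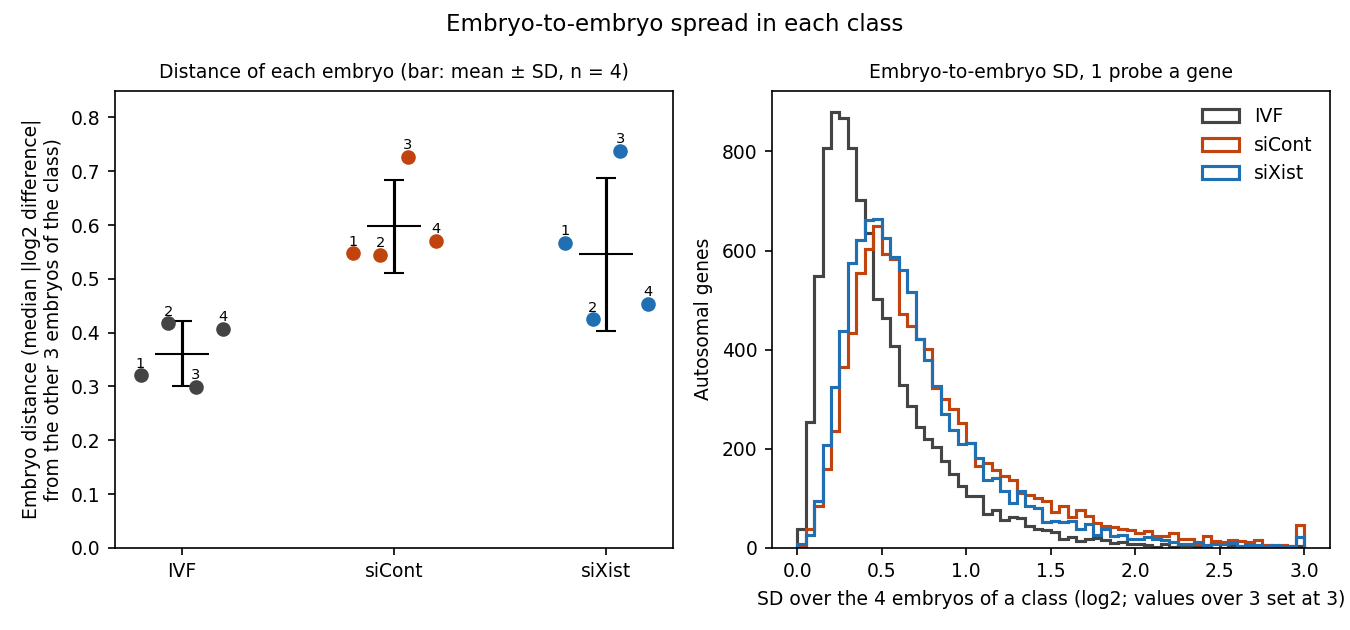
Left, the distance of each embryo from the other 3 of its class in log2 units, 1 point an embryo, with the class mean; right, the distribution over genes of the SD over 4 embryos, with SDs over 3 set at 3. All clones lie above the IVF embryos, from 0.425 to 0.738 against 0.299 to 0.417, and the clone curves are shifted to larger SDs.

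The wider spread of the clones was seen in most member probes and did not rest on a small set of genes. The median SD over embryos was 0.411 among IVF embryos, with quartiles of 0.252 and 0.667. It was 0.665 among siCont clones, with quartiles of 0.450 and 1.01, and 0.602 among siXist clones, with quartiles of 0.409 and 0.888. Of the member probes, 76.5% had the larger SD in siCont clones than in IVF embryos and 70.4% in siXist clones than in IVF embryos, with median SD ratios of 1.66 and 1.48. The siXist clones had the larger SD than siCont clones for 43.1% of probes. Probes that were tightly held, with an SD under 0.25, made up 24.6% of members in IVF embryos, 5.26% in siCont clones and 6.99% in siXist clones. At the other end, an SD over 2 was reached by 92, 447 and 248 probes. Whole arrays also stayed offset after scaling to the 75th percentile, and such an offset enters every SD and distance. The median signed difference of an embryo from its class mates was -0.086 to 0.079 in IVF embryos. It was -0.237 to 0.315 in siCont clones and -0.485 to 0.398 in siXist clones. The part of these offsets in the spread was not tested.

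Highly expressed and weakly expressed genes both took part. Split into 5 equal bins by mean level, the lowest bin had median SDs of 0.504 in IVF embryos, 0.670 in siCont clones and 0.653 in siXist clones. The highest bin had 0.257, 0.501 and 0.505, so with this scaling the brightest genes, which were the steadiest in IVF embryos, had the widest relative gap. Quantile normalization took the median SD pooled over both clone classes from 0.67 to 0.62 for all genes. For cytosolic ribosomal genes it went from 0.50 to 0.18, for chaperonin and heat shock genes from 0.40 to 0.36 and for glycolysis and lactate genes from 0.70 to 0.75. Correlation between embryos of a class gives the same picture, with median r over the 6 pairs of 0.960, 0.914 and 0.928 across probes, which are not independent replicates.

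Probes of the same gene shared part of the deviation, and so, to a lesser degree, did pairs of different genes. For 2527 genes with a second member probe, the correlation between the deviations of both probes from their class means was 0.387 in IVF embryos, 0.510 in siCont clones and 0.527 in siXist clones, pooled over genes and embryos, which share arrays. The offsets of whole arrays were left in these deviations. Gene by gene, the median r was 0.648, 0.770 and 0.793. For 393 pairs of different genes, the neighbours with overlapping start windows described below, it was 0.254, 0.315 and 0.604. Where the brighter probe had an SD over 1, the second probe did too in 39.0%, 58.0% and 52.1% of genes, against 12.3%, 27.1% and 20.4% of all second probes. Median SDs of the 20 positive-control probes above background everywhere were 0.519, 0.586 and 0.411 over the arrays of the 3 classes. The siCont arrays were the widest in these spots, as in the embryo transcripts, and the siXist arrays the narrowest. On the IVF arrays these spots varied more than the member probes, whose median SD was 0.411. The part of the arrays in the spread was not tested. Of 10 E1A spike-in probes 2 were above background.

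Large spread often came from 1 embryo in which a transcript was at a dim level. Among probes with an SD over 2, 1 embryo lay far below the other 3 in 56.5% of cases in IVF embryos, 58.6% in siCont clones and 58.1% in siXist clones, against 38.4%, 37.8% and 46.8% of all members. For genes, an SD over 2 was found in 62, 351 and 190 cases. The lowest embryo was under -3 in 51, 269 and 150 of them (82.26%, 76.64% and 78.95%), beside 18.03%, 20.78% and 19.67% of all genes. A level under -3 is dim but above background, as for all members, and the dimmest of the 5 bins had a median level of -3.27. In siCont clones the lowest embryo was clone 3 in 147 of 351 genes, and in siXist clones it was clone 3 in 74 of 190. The same clones were the highest embryo in 84 of the 351 and 70 of the 190, so siXist clone 3 was extreme about as often in either direction.

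Whole chromosomes lay low in single clones. For each embryo and chromosome, the median difference of its genes from the other 3 embryos of the class was taken relative to the median of all genes. In IVF embryos these 76 values stayed between -0.10 and 0.11. In siCont clones they reached from -0.78 to 0.49, and in siXist clones from -0.62 to 0.34. A limit of 0.25 either way, chosen after the values were seen, was passed by 0 of 76 values in IVF embryos, 9 of 76 in siCont clones and 4 of 76 in siXist clones. DNA copy number was not measured.

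The largest shift was that of chromosome 8 in siCont clone 1, where 423 of 522 genes (81.0%) lay below the other siCont clones and the median was -0.78, which is 0.581 times the level of the rest. Cut into 5 equal stretches along the order of genes on the chromosome, the shift was between -0.87 and -0.70 in each stretch. Measured against the IVF embryos it was -0.73, and second probes not used for the genes gave -0.90 over 153 probes. In siCont clone 2, chromosome 18 was at -0.71 with 167 of 210 genes lower, and chromosome 14 was at -0.45 with 233 of 327 genes lower. Both were low along their length, with stretches between -0.83 and -0.60 and between -0.60 and -0.12, and both were as low against IVF embryos, at -0.78 and -0.46. The low chromosomes of clones 1 and 2 were thus different ones.

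In siCont clone 4, chromosome 5 was at -0.46 with 463 of 639 genes lower and chromosome 3 at -0.40 with 310 of 456 genes lower, and against IVF embryos these were -0.48 and -0.29. Clone 3 of that class had smaller shifts of -0.28 on chromosome 15 and -0.27 on chromosome 7. Among siXist clones, clone 4 had chromosome 18 at -0.62 with 165 of 210 genes lower, at -0.61 against IVF embryos. In siXist clone 3, chromosome 10 was at -0.43 with 315 of 456 genes lower, and there the first stretch of the chromosome was at 0.04 while the other stretches lay between -0.65 and -0.41. The low level of chromosome 10 thus left out its first stretch, whereas that of chromosome 8 in siCont clone 1 covered every stretch. The positive shifts were smaller against IVF embryos than against the class. In siCont clone 4 they went from 0.49 to 0.21 on chromosome 18 and from 0.35 to 0.11 on chromosome 8, and in siXist clones 2 and 3 from 0.34 to 0.08 and from 0.30 to 0.12 on chromosome 18.

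**Figure D2:**
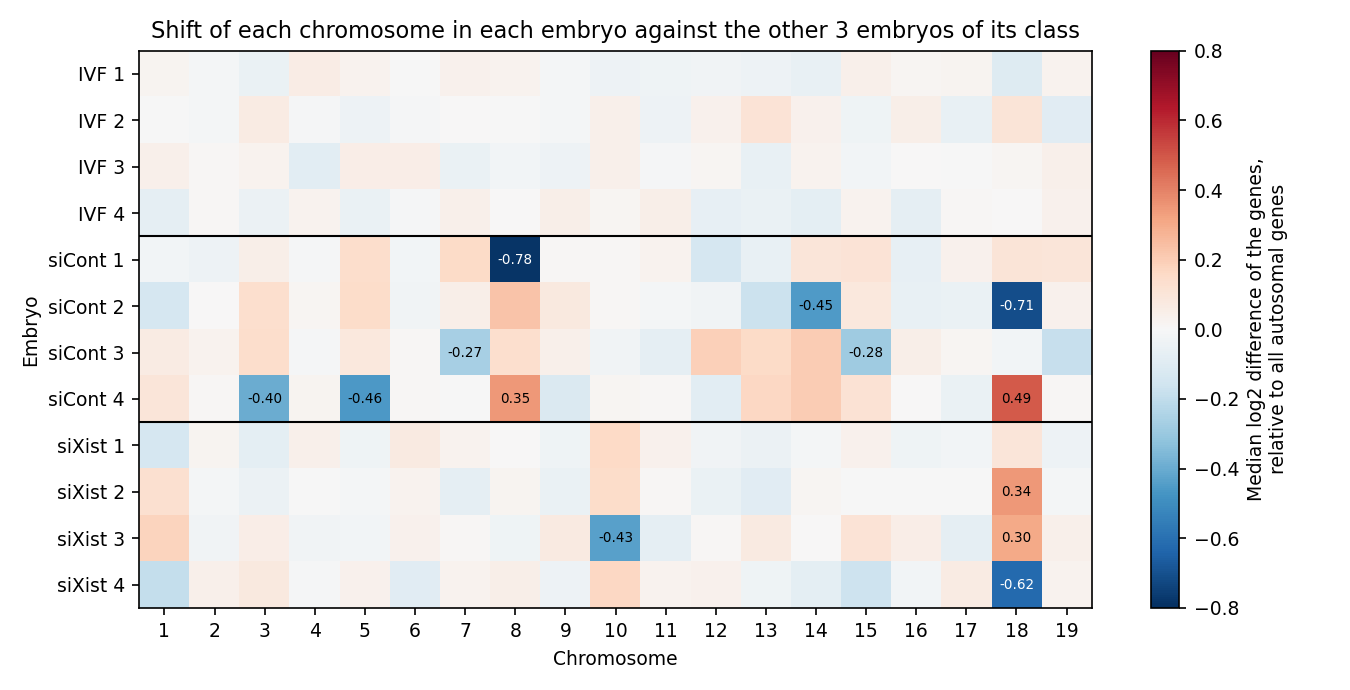
Median log2 difference of the genes of each of 19 autosomes from the other 3 embryos of the class, relative to all genes, for each of the 12 embryos. The IVF rows stay between -0.10 and 0.11, while siCont clone 1 has chromosome 8 at -0.78 and siCont clone 2 and siXist clone 4 have chromosome 18 at -0.71 and -0.62.

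**Figure D3:**
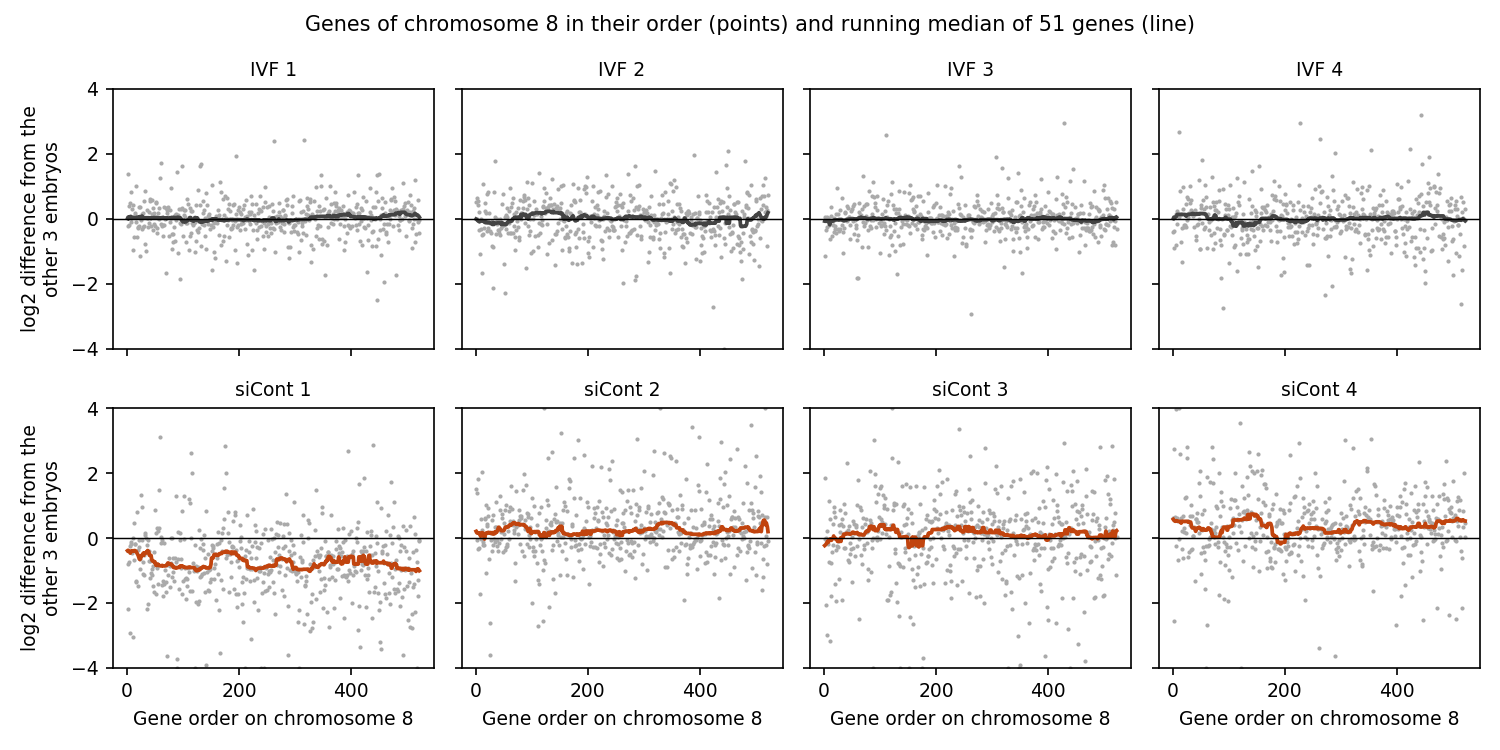
Log2 difference of each chromosome 8 gene from the other 3 embryos of the class, for IVF embryos (upper row) and siCont clones (lower row). Genes are drawn in their order along the chromosome with 1 panel an embryo. Points beyond 4 are drawn at 4, and the line is a running median over neighbouring genes. In siCont clone 1, 423 of 522 genes lie below the others along the whole chromosome.

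The SD of an embryo's 19 chromosome values sums this up in 1 number. It was 0.042, 0.052, 0.040 and 0.046 in IVF embryos 1 to 4, 0.201, 0.215, 0.138 and 0.216 for siCont clones and 0.066, 0.099, 0.140 and 0.165 for siXist clones. Every clone was above every IVF embryo. The difference from IVF embryos was 0.147 for siCont clones and 0.0722 for siXist clones (exact permutation test, two-sided, p = 0.0286 for each, the smallest possible), and between siXist and siCont clones it was -0.0748 (exact permutation test, p = 0.0857). This measure was chosen after the chromosome values were seen. A chromosome low in 1 clone is lifted in its class mates, so the 4 values of a class depend on each other. Chromosome 8 was at 0.23, 0.14 and 0.35 in siCont clones 2, 3 and 4 against the class. Against IVF embryos it was at 0.015, -0.027 and 0.111 there. The test does not take this dependence into account. The shifts held little of the total spread: with the chromosome medians of each embryo taken out, the median SD was 0.409, 0.649 and 0.598, and the distance difference was 0.228 for siCont clones and 0.181 for siXist clones.

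Several genes of the lists lie on a shifted chromosome and were lowest in that clone, and these were picked after their values were seen. On chromosome 14, low in siCont clone 2, are Tdh, Lats2, Irf9 and Psmb5, and in siCont clone 2 they stood at -0.30, 0.99, -1.54 and 4.81, each the lowest of the siCont clones. On chromosome 10, low in siXist clone 3, are Stat2, Vps26a, Shmt2 and Rpl41, at -4.44, -0.81, -1.68 and 6.11 there, each the lowest of the siXist clones. Rb1, the retinoblastoma gene, lies on chromosome 14 too and was at 3.79 in siCont clone 2, above the 0.39 of clone 1. The differences of most of these genes were larger than the chromosome median, and the part of the chromosome in them was not tested. Other genes on a shifted chromosome were not lowest in the shifted clone. Col4a1 and Col4a2, described below, lie on chromosome 8, which was low in siCont clone 1, and neither was lowest in that clone.

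The processes that varied most between clones were set against all genes in 2 ways. The first was the median SD of a list beside that of all 9521 genes, which was 0.388 in IVF embryos, 0.648 in siCont clones and 0.593 in siXist clones. The second was a ratio of the clone SD of each gene to that of genes of like level, where 1 is the typical gene, because spread differed with level. By this ratio the lists with the widest clone spread were hypoxia targets and trophectoderm genes, both at 1.53, followed by primitive endoderm genes at 1.45, glycolysis and lactate genes at 1.27, and cholesterol synthesis and fatty acid metabolism, both at 1.23. Most of these lists were about as wide or wider among IVF embryos by the same ratio, which was 1.49 for hypoxia targets, 1.64 for trophectoderm, 1.79 for glycolysis and lactate, 1.86 for cholesterol synthesis and 1.40 for fatty acid metabolism. Primitive endoderm genes, at 0.78 in IVF embryos, were the exception among these 6. The narrowest list in clones was that of genes of the 2-cell burst, 5 genes at 0.57, followed by vesicle trafficking at 0.76 and chaperonins and heat shock proteins at 0.78. Mitochondrial ribosome, tubulin, interferon and cumulus genes were each at 0.83, the proteasome at 0.84 and the nuclear-encoded respiratory chain at 0.88. Of all 9521 genes, 77.8% had the larger SD in siCont clones and 72.2% in siXist clones than in IVF embryos, and the count of each list is read beside these shares. Under 11 alternatives (quantile normalization, chromosome medians removed, or clones left out), the trophectoderm ratio ranged from 1.37 to 2.01, primitive endoderm from 1.03 to 2.10 and hypoxia targets from 1.03 to 1.61. The lowest value came without siXist clone 4 for hypoxia targets and without siCont clone 1 for primitive endoderm. No member of any of these lists was called by the test of spread against IVF embryos described below.

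**Figure D4:**
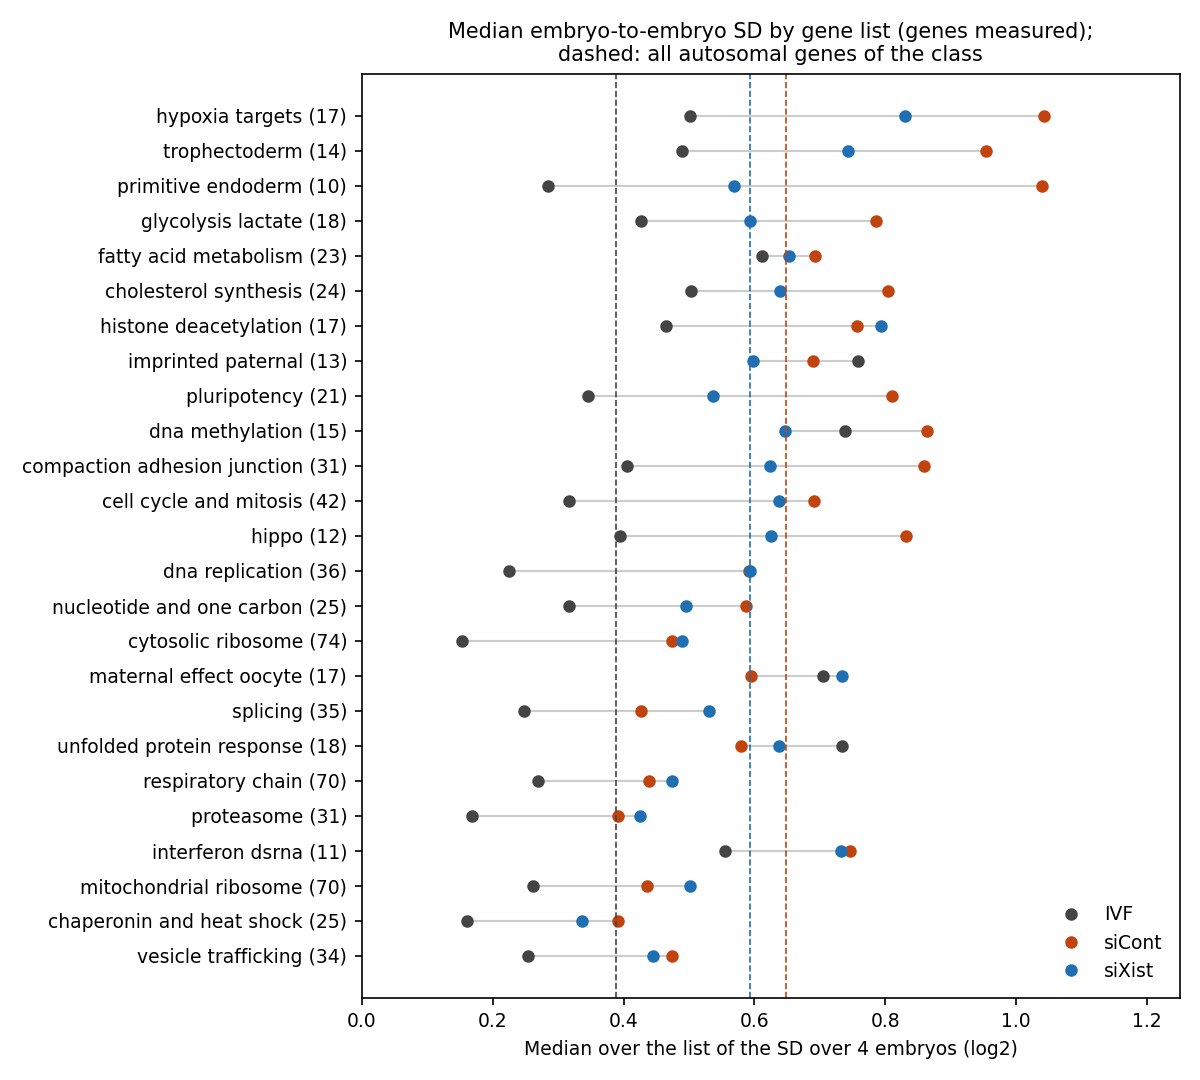
Median SD over 4 embryos, in log2 units, of the genes of each list, with 1 dot a class and dashed lines at the median of all genes (0.388, 0.648 and 0.593). Trophectoderm and hypoxia lists lie to the right of the clone lines, and proteasome and chaperonin lists to the left. The primitive endoderm list lies to the right in siCont clones, at 1.04, but not in siXist clones, at 0.57.

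Hypoxia targets are genes that the oxygen-sensing transcription factor HIF turns on when oxygen is short. Of 17 measured, 16 (94.1%) had a larger SD in siCont clones and 15 (88.2%) in siXist clones than in IVF embryos, with median SDs of 0.50, 1.04 and 0.83. Egln3, a prolyl hydroxylase that marks HIF for destruction, was at 0.40, 0.07, -0.59 and 0.51 in IVF embryos 1 to 4, 3.55, -0.93, 4.02 and 5.38 for siCont clones and 5.16, 4.63, 4.48 and 3.09 for siXist clones. Clone 2 of siCont alone lay below all IVF embryos, nearest to IVF embryo 3, while the other 7 clones were above all IVF embryos. Bhlhe40, a transcriptional repressor induced by hypoxia, was at 1.33, 0.79, 0.33 and -3.58 in siXist clones and between 0.07 and 3.42 in siCont clones. Its IVF levels lay between -5.66 and -3.22, so siXist clone 4 alone was in the IVF range. Hif1a, the oxygen-regulated subunit of HIF, reached -4.15 in siXist clone 1 against -0.71, -0.15 and -0.68 in the others, and Hif3a, a further HIF subunit, was steady in every class with SDs of 0.13, 0.14 and 0.19, at a dim level. As a group, hypoxia targets were 0.66 above all genes in siCont clone 3 and -0.57 in siCont clone 2.

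Glycolysis and lactate genes, 18 measured, had median SDs of 0.43, 0.79 and 0.59. Slc16a3, the exporter of lactate, was between -4.64 and -3.64 in IVF embryos, at -3.49, -0.97, 1.53 and -1.47 in siCont clones and at -1.87, -5.02, -1.49 and -4.27 in siXist clones. It spanned the IVF level and far above it in both clone classes. Ldhb, a lactate dehydrogenase subunit, was high in 1 clone of each class, at 4.14 in siCont clone 2 and 4.13 in siXist clone 3, with the other clones between 1.15 and 2.02. Eno3, an enolase, had an SD of 2.27 in siCont clones and 0.72 in siXist clones. Pkm, pyruvate kinase, was the steadiest, with a clone SD of 0.27 against 0.80 in IVF embryos.

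Lipid metabolism varied from embryo to embryo in all classes. The 24 cholesterol synthesis genes had median SDs of 0.50, 0.80 and 0.64, and 11 of the 24 were already above the 75th percentile of spread in IVF embryos. In IVF embryo 3 they were 0.92 above all genes, with 23 of 24 higher than in the other IVF embryos, and in siXist clones they ran from -0.56 in clone 1 to 0.58 in clone 4. Stard4, a carrier of cholesterol, was at 1.91, -3.33, -1.23 and 1.39 in siCont clones. Tm7sf2, a sterol reductase, had SDs of 2.44, 2.08 and 1.83, so it was as variable in IVF embryos as in clones. Cyp51, a sterol demethylase, had a clone SD of 1.55 by its brightest probe, and its other probes had 0.63 and 0.98. Among 23 fatty acid genes, with median SDs of 0.61, 0.69 and 0.65, Dgat1, which makes triglycerides, and Cpt2, which carries fatty acids into mitochondria, were each lowest in siCont clone 3, at -5.35 and -5.12. The other 3 siCont clones had Dgat1 between 0.43 and 2.87 and Cpt2 between 0.96 and 2.13.

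Genes of the outer lineage varied more than genes of like level in every class, with ratios of 1.64 in IVF embryos, 1.72 in siCont clones and 1.26 in siXist clones. The 14 measured trophectoderm genes had median SDs of 0.49, 0.95 and 0.74, with 12 of 14 (85.7%) larger in siCont clones and 10 of 14 (71.4%) in siXist clones than in IVF embryos, beside 77.8% and 72.2% of all genes. As a group they ran within the siXist class from 0.67 above all genes in clone 2, where 12 of 14 were higher than in the other siXist clones, to -1.06 in clone 4, where 13 of 14 were lower. In the siCont class they were at 0.24, -0.46, -0.61 and 0.70. IVF embryo 4 was also low, at -0.60. Krt19, a keratin of epithelia, was at 2.45, 4.16, 2.57 and -1.44 in siXist clones and 1.38, 2.12, -0.81 and 1.79 in siCont clones, with IVF embryos between -4.44 and -1.56. Clone 4 of siXist was therefore close to IVF embryo 4, siCont clone 3 was the next lowest, and the other 6 clones lay at 1.38 or above. Atp1b1, a sodium pump subunit used to form the blastocoel, was at 2.06, 4.37, 5.47 and 3.89 in siXist clones, and Id2, an early mark of outer cells, was highest in siCont clone 4 at 4.35 and in siXist clone 2 at 3.97. Aqp3, a water channel, was the steadiest with a clone SD of 0.50. Cdx2, the defining factor of the lineage, was no member because its probe was not above background in siCont clone 3. Its levels were 3.44, -2.93, -7.87 and 3.18 for siCont clones and 3.83, 3.04, 1.34 and 3.20 for siXist clones, against 4.37 to 5.13 in IVF embryos.

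Junction and Hippo genes shape the outer cells. Of 31 compaction and junction genes, 28 (90.3%) had the larger SD in siCont clones and 19 (61.3%, under the share of all genes) in siXist clones than in IVF embryos, with median SDs of 0.41, 0.86 and 0.62. As a group they were 0.54 above all genes in siCont clone 4 and -0.58 in siCont clone 3. Ocln, which seals tight junctions, was at -0.70, -0.73, 2.19 and 2.97 in siCont clones, a split of 2 against 2, and Cldn6, a claudin, was at -1.33, 2.10, -0.62 and 2.18. Dsg2, a desmosomal cadherin, had an SD of 2.19 in siCont clones, but its second probe had a clone SD of 0.66. Ctnnb1, beta-catenin, was steady with a clone SD of 0.29. Among 12 Hippo genes, with medians of 0.39, 0.83 and 0.63, Wwtr1, the coactivator TAZ, was at -1.66, 0.39, -4.0 and -5.53 for siCont clones and -5.09, 0.59, 0.48 and -1.10 for siXist clones. Lats2, the kinase that restrains YAP and TAZ, was among the tightest genes of IVF embryos with an SD of 0.08, and it was at 3.51, 0.99, 3.72 and 2.11 for siCont clones and 3.62, 2.42, 1.73 and 1.37 for siXist clones.

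Among 10 primitive endoderm genes the siCont clones stood out, with a median SD of 1.04 against 0.57 in siXist clones and 0.29 in IVF embryos. Col4a1 and Col4a2, which encode the 2 chains of the collagen of basement membranes, are divergent neighbours on chromosome 8. Their start regions are shown because the 2 genes start next to each other and both varied among clones. The windows of 250 bases before to 50 after each start, from RefSeq on GRCm38.p6, are chr8:11312777-11313076 on the minus strand for Col4a1 and chr8:11312555-11312854 on the plus strand for Col4a2, each printed 5′ to 3′ on its own strand, with the 78 bases that both windows hold in capitals.
Col4a1: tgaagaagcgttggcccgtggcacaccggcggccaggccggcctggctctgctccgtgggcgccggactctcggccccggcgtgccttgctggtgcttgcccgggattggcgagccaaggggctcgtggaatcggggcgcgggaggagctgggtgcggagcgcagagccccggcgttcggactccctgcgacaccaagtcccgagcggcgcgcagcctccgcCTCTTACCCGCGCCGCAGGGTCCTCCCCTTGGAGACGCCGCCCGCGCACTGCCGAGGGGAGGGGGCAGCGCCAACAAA
Col4a2: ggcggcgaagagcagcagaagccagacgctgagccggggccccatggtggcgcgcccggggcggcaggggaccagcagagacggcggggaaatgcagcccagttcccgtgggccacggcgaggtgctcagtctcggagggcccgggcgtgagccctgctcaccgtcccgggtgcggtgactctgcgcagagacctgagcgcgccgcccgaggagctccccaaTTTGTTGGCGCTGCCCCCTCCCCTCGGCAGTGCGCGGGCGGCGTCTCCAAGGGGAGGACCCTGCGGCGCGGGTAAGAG
Col4a1 was nearly identical in the 4 IVF embryos, at 2.98, 2.93, 2.99 and 2.87. Among siCont clones it stood at 3.46, -0.53, 2.40 and 4.06 and among siXist clones at 3.72, 4.55, 3.43 and 2.56. The IVF levels of Col4a2 were 1.41, 1.39, 1.53 and 2.05, those of siCont clones 1.1, -1.86, -0.42 and 2.25 and those of siXist clones 3.15, 2.47, 1.21 and -0.18. Both were lowest in clone 2 and highest in clone 4 of siCont, and both were lowest in clone 4 of siXist. A second probe of Col4a1 had a clone SD of 1.73 against 1.55 for the first. Among the measured genes 393 pairs on opposite strands had overlapping start windows. Both genes of a pair had an SD over 1 in 3 pairs in IVF embryos, 12 in siCont clones and 11 in siXist clones. Of all member probes 10.3%, 25.3% and 19.4% had such an SD, which is a share of single probes and not of pairs. These counts do not show that such pairs vary together more than unrelated genes. Sparc, a further matrix protein of that lineage, was at -0.52, 2.75, -0.03 and 3.13 in siCont clones and so did not share the low level of clone 2.

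Genes of the pluripotency network ranged from steady to widely spread. Of 21 measured genes, 18 (85.7%) had the larger SD in siCont clones and 16 (76.2%) in siXist clones than in IVF embryos, near the shares of all genes, and the median SDs were 0.35, 0.81 and 0.54. Tdh, threonine dehydrogenase, the enzyme that feeds the metabolism of mouse pluripotent cells from threonine, was at 6.66, 6.40, 5.94 and 7.21 in IVF embryos. In siCont clones 1 to 4 it was at 6.14, -0.30, 2.98 and 5.82, and in siXist clones at 6.46, 5.70, 1.33 and 3.93. Clone 1 of each clone class was in the IVF range, siCont clone 4 and siXist clone 2 were just below it, and siCont clone 2 and siXist clone 3 were far below it. Tdgf1, the co-receptor Cripto, was at 1.70, 0.65, -3.64 and -1.28 in siXist clones. Klf2, a factor of the naive state, was lowest in siXist clone 3 at 3.37, but a second probe of the gene had a clone SD of 0.35 against 1.32. Pou5f1 lay between 3.53 and 4.96 in all clones and between 4.92 and 5.28 in IVF embryos, and Fbxo15, an embryonic stem cell F-box gene, had a clone SD of 0.42.

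**Figure D5:**
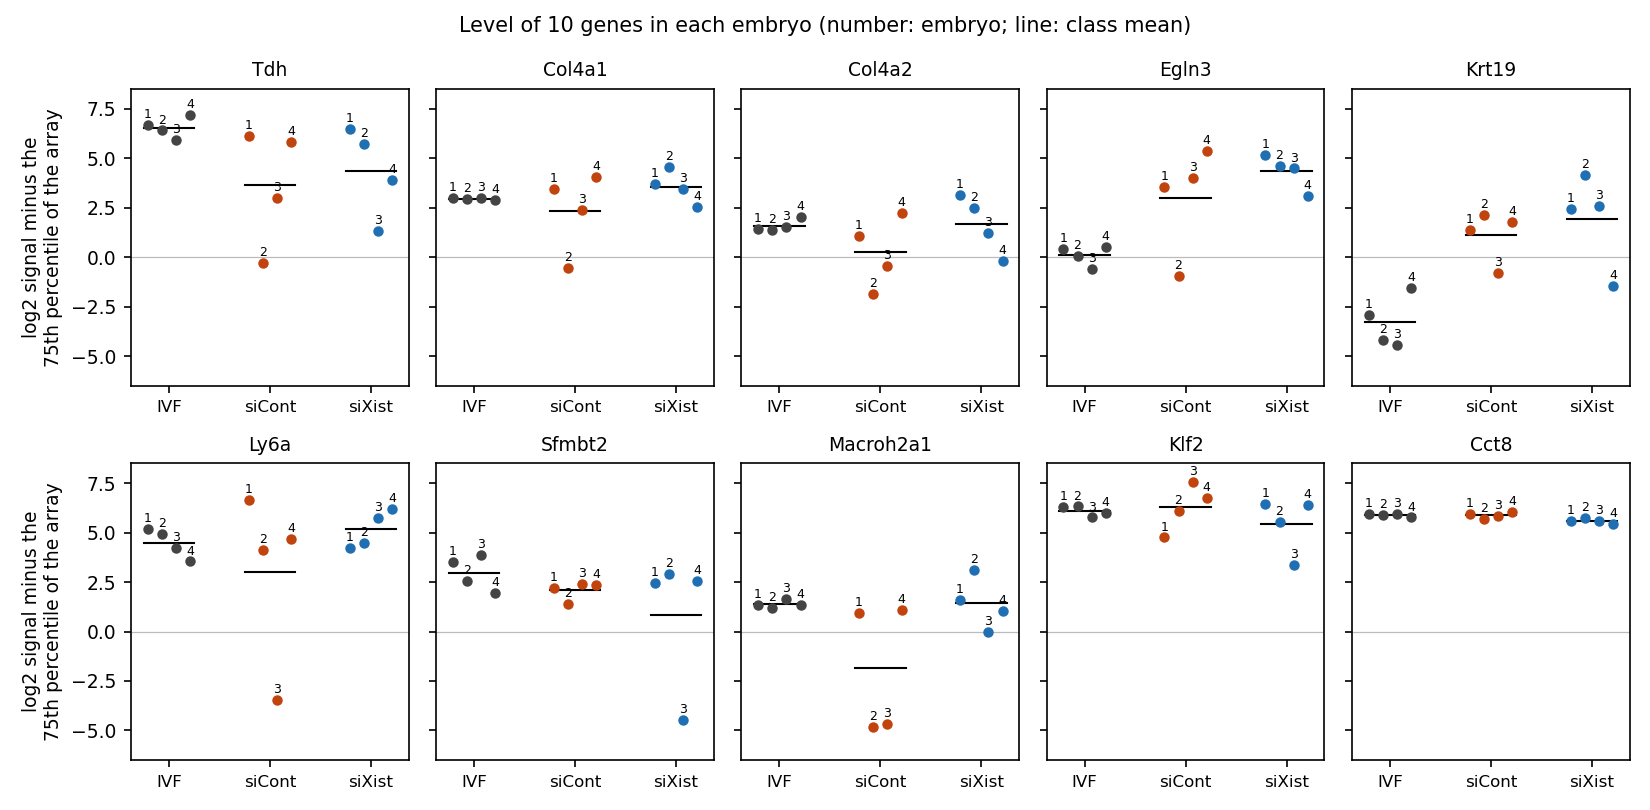
Log2 level relative to the 75th percentile of the array for 10 genes, 1 point an embryo, in IVF, siCont and siXist embryos. Col4a1 and Macroh2a1 are tight in IVF embryos and spread in siCont clones. Tdh is spread more widely in siCont clones than in IVF embryos, Ly6a and Sfmbt2 are low in 1 clone, and Cct8 is steady in all classes.

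Chromatin genes and imprinted genes had single clones out of range. The 13 measured genes expressed from the paternal allele had median SDs of 0.76, 0.69 and 0.60, no larger in clones than in IVF embryos, and their median ratio to genes of like level was 1.20 with a range of 0.93 to 1.53 under the same alternatives. Sfmbt2, a polycomb-related gene expressed from the paternal allele, was at 2.45, 2.89, -4.48 and 2.57 in siXist clones, 2.18, 1.38, 2.42 and 2.35 in siCont clones and between 1.97 and 3.88 in IVF embryos. In siXist clone 3 alone it was at a dim level. Peg3, an imprinted zinc finger gene, was at -0.71, 0.46, -5.19 and -2.72 in siCont clones. Of 17 histone deacetylation genes, with medians of 0.46, 0.76 and 0.79, Hdac10 had a clone SD of 1.61 and Sap18 one of 0.35. The 15 DNA methylation genes had medians of 0.74, 0.86 and 0.65, with Uhrf2, a reader of modified cytosine, at 0.09, 2.45, 2.64 and -0.91 in siCont clones and Dnmt3l, the cofactor of de novo methylation, at a clone SD of 0.31. In the list of 11 interferon and double-stranded RNA genes, with medians of 0.56, 0.75 and 0.73, the clone 3 embryos went opposite ways for Stat2, a signal transducer of interferon, which was at 2.45 in siCont clone 3 and -4.44 in siXist clone 3, with the other 6 clones between -0.84 and -0.13. Irf9, its partner, was at -3.65 in siXist clone 3.

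Most lists of large protein machines had median SDs below those of all genes, but several were typical or wider beside genes of like level. All but 1 of the 74 cytosolic ribosomal protein genes had a larger SD in siCont clones than in IVF embryos, and the same number, 73, held for siXist clones, with median SDs of 0.15, 0.47 and 0.49. Their ratio to genes of like level was 1.02, and 0.63 to 1.06 under those alternatives. The SD of the mean over the whole list was 0.11 in IVF embryos, 0.43 in siCont clones and 0.50 in siXist clones, beside 0.07, 0.11 and 0.23 for the mean over all genes. After quantile normalization the median clone SD of the list was 0.18 in place of 0.50. Relative to all genes the list was at 0.42 in siCont clone 3, -0.42 in siCont clone 4, -0.36 in siXist clone 3 and 0.21 in siXist clone 4, and between -0.11 and 0.07 in IVF embryos. The ribosomal list was thus opposite in sign in clone 3 of the 2 classes, the embryos that also had the lowest and the highest detection, whose part in it was not tested. Medians were 0.27, 0.44 and 0.47 for 70 respiratory chain genes, 0.26, 0.44 and 0.50 for 70 mitochondrial ribosome genes, 0.16, 0.39 and 0.34 for 25 chaperonin and heat shock genes and 0.25, 0.47 and 0.44 for 34 vesicle trafficking genes. The 31 proteasome genes had medians of 0.17, 0.39 and 0.43, 36 DNA replication genes 0.23, 0.59 and 0.59, 35 splicing genes 0.25, 0.43 and 0.53 and 42 cell cycle genes 0.32, 0.69 and 0.64.

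Nucleotide and one-carbon genes, 25 measured, had medians of 0.32, 0.59 and 0.50, and all 25 had the larger SD in siCont clones than in IVF embryos. Shmt2, the mitochondrial enzyme that splits serine for one-carbon units, was at 0.12, -0.15, 0.18 and 0.03 in IVF embryos and -2.15, -1.41, -3.68 and -0.56 in siCont clones. Atic, of purine synthesis, was at -2.0 in siCont clone 3 and between 0.71 and 1.37 in the other siCont clones. Lists whose median SD was about as large or larger among IVF embryos were the unfolded protein response, 18 genes with medians of 0.73, 0.58 and 0.64, and oocyte and maternal-effect genes, 17 with 0.70, 0.59 and 0.73. Sdf2l1, an endoplasmic reticulum protein of that response, was still at -3.12 in siCont clone 3 against 1.79 to 2.29 in the other siCont clones. Pdia6, a disulfide isomerase, had an SD of 0.86 in IVF embryos and a clone SD of 0.17, but a second probe of it had a clone SD of 1.13.

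The genes with the largest spread of all were of many kinds. BC048679 was at 5.09, 3.95, -4.53 and 1.69 in siXist clones and 2.53, -0.20, -0.69 and 3.80 in siCont clones, with IVF embryos between 4.16 and 5.24. Ly6a, a surface antigen known as Sca-1, was at 6.66, 4.10, -3.44 and 4.70 in siCont clones and between 4.21 and 6.19 in siXist clones, so it was dim in 1 clone only. Ly6c2, its close paralog, was at -2.20 in the same clone, and signals of such paralogs may not be separable on the array. Cdyl2, a chromodomain protein, was at -5.01 in siCont clone 3 only, with all other embryos between 1.17 and 3.58. Lhx2, a homeodomain factor, was at -5.07 and -4.55 in siCont clones 2 and 3 and -2.85 and -5.98 in siXist clones 3 and 4, with the other clones between -0.19 and 1.56. Aldh1a1, which makes retinoic acid, went the other way, at 3.67 and 2.69 in siXist clones 3 and 4 with every other embryo between -4.59 and -0.37. Sphk1, Wscd2, Meltf and Limch1 had clone SDs of 3.25, 2.96, 2.94 and 2.91. Sphk1, sphingosine kinase, ranged in siCont clones from -4.79 to 3.18, and Limch1, an activator of myosin, had an SD of 2.47 in IVF embryos as well.

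IVF embryos had variable genes of their own. The largest SDs among them were those of Smarca4 and Smarcc1, the ATPase and a core subunit of the BAF chromatin remodeller. Smarca4 was at 0.65, -5.45, 0.41 and 4.39 and Smarcc1 at 0.75, -2.37, 2.40 and 4.74 in IVF embryos 1 to 4, both lowest in embryo 2 and highest in embryo 4. In siCont clones both were lowest in clone 3, at -4.68 and -3.57. Mpp7, a polarity scaffold, and Nmral1 were lowest in IVF embryo 4, at -3.42 and -5.21. For Mpp7 and Nmral1 the clone SDs were smaller, at 0.69 and 1.14.

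The steadiest genes of the clones were Tmx2, a thioredoxin-like membrane protein, Npsr1, a neuropeptide receptor, Alx4, a homeodomain factor, Sfr1, a recombination cofactor, Cct8, a chaperonin subunit, and Spg11. Cct8 was between 5.44 and 6.06 in all 12 embryos, with SDs of 0.09, 0.17 and 0.12. Sfr1 had SDs of 0.13, 0.12 and 0.16. Npsr1 and Alx4 were steady at dim levels, between -5.83 and -4.63 and between -4.09 and -3.15. Second probes did not share the small SD of Tmx2, at 0.37 against 0.09, or of Spg11, at 1.34 against 0.15.

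Single genes could rarely be shown to differ in spread with 4 embryos a class. The absolute deviation of each embryo from its class mean was fitted with limma over all 15658 probes that passed the filter on any chromosome. At a Benjamini-Hochberg adjusted p under 0.05 it called 46 member probes between siCont clones and IVF embryos, 44 with larger and 2 with smaller spread in the clones, where 0.377% of all probes tested were called, 0.332% larger and 0.0447% smaller. Between siXist clones and IVF embryos it called 8 members, 6 larger and 2 smaller, with 0.0703% of all probes called, 0.0447% larger and 0.0255% smaller. Between siXist and siCont clones it called 35, 5 larger and 30 smaller in siXist clones, with 0.281% of all probes called, 0.0447% larger and 0.236% smaller. For both clone classes against IVF embryos it called 4, 3 larger and 1 smaller, with 0.0447% of all probes called, 0.0255% larger and 0.0192% smaller. Unadjusted p under 0.05 was reached by 1853, 1372, 1602 and 1595 members, beside 14.7%, 10.9%, 12.4% and 12.8% of all probes tested. These p-values measure the spread between the embryos of these classes alone. The comparisons share classes, and their counts are not independent. An F ratio of the variances called 0 members in the first 3 comparisons after adjustment and 1487, 1315 and 736 before it.

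All 44 members called larger in siCont clones had their 4 siCont embryos split 2 against 2, a pattern that 27.3% of members had. The fitted test favours that pattern, because 4 equal deviations leave no residual, and in simulated data it called more unchanged genes than its threshold allows. Leaving out any 1 siCont clone left 0 members called in this comparison. The called genes are therefore given as patterns of these embryos.

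Pdgfrl, a protein related to the receptors of platelet-derived growth factor, was at -5.67, 1.87, 3.54 and -4.57 in siCont clones, between -1.72 and 0.34 in siXist clones and between -0.58 and 0.88 in IVF embryos. Its mean absolute deviation was larger in siCont clones than in IVF embryos by 4.06 (SE 0.41, limma adjusted p = 0.0025). Macroh2a1, the macroH2A histone variant, was at 1.36, 1.20, 1.66 and 1.33 in IVF embryos, 0.95, -4.84, -4.66 and 1.09 for siCont clones and 1.58, 3.12, -0.01 and 1.04 for siXist clones. It was thus dim in siCont clones 2 and 3 only, and its deviation was larger by 3.18 (SE 0.33, limma adjusted p = 0.0025). Fnip2, a partner of folliculin, was at -4.15 and -3.01 in siCont clones 1 and 3 and 2.24 and 1.15 in clones 2 and 4. Osbpl5, an oxysterol-binding protein, and Card10, an activator of NF-kB signalling, were low in clones 1 and 3 and high in clones 2 and 4 as well, at -4.37, 2.79, -4.06 and 3.67 and at -3.99, 3.29, -3.39 and 1.59. Spry1, an inhibitor of growth factor signalling, had the same split at -4.40, 1.48, -4.42 and 2.38, so that siCont clones 1 and 3 shared a low level in these 4 genes.

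Pdgfrl, Osbpl5, Card10, Spry1 and Macroh2a1 were also called with a smaller spread in siXist than in siCont clones, with differences of -3.65, -3.01, -2.66, -2.39 and -2.27 (limma adjusted p = 0.0074, 0.044, 0.027, 0.022 and 0.015). In the other direction, H1f2, a linker histone, was at 2.66, -0.68, -0.59 and 3.07 in siXist clones and between 0.72 and 1.92 in siCont clones, and Xpa, of nucleotide excision repair, at -0.87, -0.50, -3.60 and -3.23 against -1.51 to -0.53. Gas6, a ligand of TAM receptors, was at 1.27, 0.77, 4.04 and 4.55 in siXist clones, 1.56, 3.09, 2.00 and 2.55 in siCont clones and 3.87 to 4.65 in IVF embryos. Clones 3 and 4 of siXist had Gas6 at the IVF level and clones 1 and 2 had it far below. Its deviation exceeded that of IVF embryos by 1.60 (SE 0.22, limma adjusted p = 0.03). Car4, a carbonic anhydrase, Wdr31 and Pld4 were called with it, by 1.73, 1.18 and 1.14 over IVF embryos.

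Over both clone classes, Lipf, a gastric lipase, was the clearest. It was at -5.35, -5.37, -5.27 and -5.37 in IVF embryos, -5.10, -2.42, -2.41 and -5.24 for siCont clones and -2.67, -3.68, -2.55 and -4.18 for siXist clones. IVF embryos and 2 siCont clones were at 1 dim level, while the other 6 clones were above it, and the deviation was larger in clones by 1.14 (SE 0.13, limma adjusted p = 0.0084). Smaller spread in clones was called for Phykpl, an enzyme of lysine breakdown, at -3.89, -1.04, -1.14 and -3.52 in IVF embryos and between -2.67 and -0.54 in all clones. Lmod3, an actin nucleator of muscle, was at 0.68, -3.44, -1.12 and -4.57 in IVF embryos and held between -0.49 and -0.17 in siCont clones. Tmem141 was at -4.09, 1.13, -0.13 and -4.53 in IVF embryos and between -0.79 and 0.88 in siXist clones.

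The loss of detection gives a further measure that the SD of members does not hold, since a member had to be above background in all embryos. Of 25933 autosomal probes, 20.2% were above background in some but not all IVF embryos, 24.4% in some but not all siCont clones and 21.6% in some but not all siXist clones. In siCont clone 3, 1311 autosomal probes were lost that the other 3 siCont clones all had, and in the other 11 embryos this number was between 121 and 790. So the siCont clone with the lowest detection was also the one that stood farthest from its class.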

How the data were processed

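Single morulae of 3 classes were measured on 1-colour arrays, 1 embryo an array. Per the file headers and the submitters' processing notes, the deposited intensity values came from Agilent Feature Extraction 10.5.1.1, with background subtraction and detrending within each array, on an array grid of build mm9. Sequences are RefSeq's on GRCm38.p6. The authors' deposited value table holds log2 values. Each was found to be the processed signal on the log2 scale, shifted by 1 constant per array and centred on its probe's median. Its array medians ran from -1.62 to 0.75, and how its constants were chosen is not given in the sources used here.

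The log2 processed signal minus the array's 75th percentile over non-control probes was taken, outlier spots were left out and spots of one probe averaged. Probes were named through RefSeq by accession. Only probes well above background on all 12 arrays entered, and the number of arrays limits the precision. Per-probe absolute deviations from the class mean, scaled for the class size, were fitted with limma 3.58.1 in R 4.3.3 over all 12 arrays (lmFit, eBayes, two-sided, Benjamini-Hochberg over 15658 probes). One distance per embryo was compared by exact permutation, which takes the distances of a class as independent although each is measured from its class mates. Python 3.11.15 and pandas 2.3.3 were used for chromosome and list summaries. The fit was tested on simulated data.

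Genes were named by rule: the 12 largest clone SDs, the 6 largest in each class, the 6 smallest, up to 5 called each way per comparison, and, for each list described, up to 3 with the largest and 1 with the smallest clone SD. Further genes are defining markers. Some genes that the rule names are not reported here. The members, the rule and the gene lists were chosen with earlier results of these data known. Alternatives were other scalings, background correction, filters, centres, priors and an F ratio, the replicate number as a block, the authors' table, IVF deviations within sex and each embryo left out. Scaling by a fitted line, removal of chromosome medians, the chromosome SD and leaving out clone 3 of both classes were added after seeing the data.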

Additional observations from a re-analysis of the deposited data

Results flagged for a closer look

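In 294 groups of 4 embryos (distances, list means and genes described here), 14, or 4.76%, had 1 embryo whose gap to the nearest other embryo, divided by the range of the group, was above Dixon's critical value for groups of that size. Chance gives about 1 in 20. Of the 14, 2 were in IVF embryos, 9 in siCont clones and 3 in siXist clones.

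The distance of siCont clone 3 from its class mates was 0.727 with the next at 0.570, a gap of 0.859 of the range. In IVF embryo 4 the mean of the trophectoderm list deviated by -0.43 from the class with the next embryo at 0.10, a gap of 0.882.

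Lhx2 was high in IVF embryo 4, at 3.01 with the next at 1.33 (gap 0.85). Meltf was low in siCont clone 2, at -5.28 with the next at 0.26 (gap 0.971). Cdyl2 was low in siCont clone 3, at -5.01 with the next at 2.60 (gap 0.924). Cpt2 was low in the same clone, at -5.12 with the next at 0.96 (gap 0.838). Pkm was lower there by little, at 2.02 with the next at 2.39 (gap 0.909). Stat2 was high in siCont clone 3, at 2.45 with the next at -0.76 (gap 0.974), and low in siXist clone 3, at -4.44 with the next at -0.82 (gap 0.84). Hif1a was low in siXist clone 1, at -4.15 with the next at -0.71 (gap 0.858), and Sfmbt2 in siXist clone 3, at -4.48 with the next at 2.45 (gap 0.94). Ccn1, a secreted target of YAP, was low in siCont clone 4, at 0.09 with the next at 2.95 (gap 0.861). Ldhb was high in siCont clone 2, at 4.14 with the next at 2.02 (gap 0.846), and so was Cyp51, at 1.51 with the next at -0.06 (gap 0.841). What lay behind each of these embryos was not tested.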

How the results depend on the processing

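Clones of both classes stayed farther from their class mates than IVF embryos under every alternative run, while the number of single probes called for spread moved widely. Why the values below moved was not tested. Signal over background limits the precision of the dimmest probes. The distance difference was 0.372 (exact permutation test, p = 0.114) for siCont clones against IVF embryos, 0.0286 (p = 0.6) for siXist clones and 0.200 (p = 0.234) for all clones with the authors' table, whose array constants were not scaled out. For siXist clones it was 0.160 (exact permutation test, p = 0.171) within sex, 0.118 (p = 0.0571) with scaling by a line and 0.210 (p = 0.0571) in the upper part of the level range. Without clone 3 of both classes it was 0.201 and 0.0951 (exact permutation test, p = 0.0571 for each, the smallest that design allows), and 0.148 (p = 0.00952) for all clones.

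Leaving out 1 embryo gave 0.183 to 0.300 for siCont clones against IVF embryos, 0.0951 to 0.272 for siXist clones, 0.157 to 0.252 for all clones and -0.141 to 0.0357 for siXist against siCont clones, which turned to 0.0357 without siXist clone 2 and 0.0297 without siXist clone 4. Chromosome SD differences were 0.140 to 0.193, 0.0517 to 0.106, 0.102 to 0.129 and -0.121 to -0.0414. Without clone 3 of both classes they were 0.193 and 0.0712 (exact permutation test, p = 0.0571), and with no detection filter the siXist difference was 0.0376 (p = 0.0857).

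The median SD was 0.510 in IVF embryos with no detection filter, 0.585 and 0.972 in IVF embryos and siCont clones with the authors' table, 0.323 and 0.574 in the upper part of the level range, 0.552 in siCont clones after normexp, and 0.559 and 0.451 in siCont and siXist clones without their clone 3. With 1 embryo left out it was 0.355 to 0.411 in IVF embryos, 0.559 to 0.665 in siCont clones and 0.451 to 0.612 in siXist clones.

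Member probes called, in the order siCont against IVF, siXist against IVF, siXist against siCont and all clones against IVF, were 46, 8, 35 and 4. They were 133, 38, 56 and 39 within sex, 16, 0, 13 and 1 around the class median, 83, 16, 63 and 12 with scaling by a line, 91, 15, 80 and 1 with a robust trended prior, and 73, 13, 1 and 128 on the log2 deviation. With no detection filter they were 404, 313, 459 and 291, in the upper part of the level range 0, 1, 4 and 0, and without clone 3 of both classes 0, 0, 0 and 2. The F ratio called 0, 0 and 0 in the first 3. Calls for siXist against IVF and for all clones were 21 and 13 after normexp, 28 and 13 after quantile normalization, 15 and 9 without chromosome medians and 3 and 2 with the authors' table. Median scaling gave 56 for siXist against siCont and 18 for all clones, and keeping outlier spots gave 7 for all clones. Leaving out 1 embryo gave 0 to 77, 0 to 25, 0 to 38 and 0 to 4.

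The replicate number is the position on the slide. Deviations of embryos with the same number correlated at -0.23 to 0.097, so the numbers do not pair the embryos. With the number as a block 11, 0, 14 and 0 probes were called, and the distance differences of 0.236 and 0.185 had p = 0.125 by an exact permutation test within pairs, the smallest that pairing allows.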

Other observations

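Further lists held genes with single clones out of range. Of 25 DNA repair genes, 20 (80.0%) had a larger SD in siCont clones and 21 (84.0%) in siXist clones than in IVF embryos, beside 77.8% and 72.2% of all genes, with median SDs of 0.30, 0.59 and 0.68. Atr, a kinase of the replication checkpoint, was at 3.53, 2.80, -2.31 and 3.22 in siCont clones and between 3.01 and 3.67 in siXist clones, and its second probe had a clone SD of 1.97 as well, against 1.96. Among 29 p53 and apoptosis genes, with medians of 0.37, 0.58 and 0.60, Bbc3, a death-promoting Bcl2 relative, was at 3.04, 0.45, 3.75 and 4.03 in siXist clones, and Trp53 itself had a clone SD of 0.30. Hmox1, heme oxygenase, one of 26 oxidative stress genes, was at -1.48, 3.18, 2.37 and 2.25 in siCont clones and between 1.04 and 2.42 in siXist clones, with IVF embryos between -2.90 and -0.89. Clone 1 of siCont, whose chromosome 8 genes lay low and which carries Hmox1 there, was the clone within the IVF range, and the part of the chromosome in that was not tested.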
